A study of Saccharomyces cerevisiae with 14 samples.

Results

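Isolates SCY840 and SCY820 are yeast (Saccharomyces cerevisiae) strains labelled as ARV1 mutants, and their transcript levels were compared on the Ye6100 array format. Members were all probe sets named by an open reading frame in the deposited Ye6100 table, 6421 of 6593. These cover 5663 genes of 6003 read on either array format of the series, and 4566 passed a filter on low signal (a mean of more than 25.4 over the 3 Ye6100 samples), while 1097 did not. Of the 4566 genes, 4071 exceeded that signal in both isolates. A gene that passed through 1 isolate alone had to differ between them. The comparison uses 8 of the series' 14 arrays, 4 chips for each isolate, and the 4 chips of an isolate read different genes in 1 RNA sample. SCY840 was set against SCY820.

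Both isolates carry the same genotype per the series' design text, an ARV1 mutation in the W303 background and mating type a, and grew to mid-logarithmic phase in YEPD, a rich glucose medium. A further Ye6100 sample, from the control strain SCY328, served only to place a gene's level. On the other format, S98, a second RNA sample labelled SCY840 was hybridised beside the control strain SCY2004. The labels do not say how the ARV1 mutation was made or how many cultures entered a sample. With 1 RNA sample for each isolate there is no replicate spread between cultures, so no test was made, and isolate, culture, RNA preparation and chip set cannot be told apart.

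The Arv1 protein sits in endoplasmic reticulum membranes and is known for its part in lipid and sterol movement and in the making of glycosylphosphatidylinositol anchors. Yeast in glucose balance growth against stress protection: fast growth uses high levels of ribosomal protein and ribosome assembly transcripts, while the transcription factors Msn2 and Msn4 switch on a general stress programme of chaperones, reserve carbohydrate enzymes and antioxidants. Glucose also represses genes of respiration, of other carbon sources and of high-affinity hexose transporters, and induces low-affinity ones.

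ARV1 itself had a signal of 2.2 in SCY840 and 1 in SCY820, against 33.4 in SCY328. Both isolates lay under the signal floor of 2.4, the 5th percentile of the table, so no fold was taken between them. The markers of cell type gave similar signals in both isolates. All 7 a-cell genes passed the filter and none differed 2-fold. MFA2, a gene for a-factor pheromone, had a signal of 1712.8 in SCY840, 1779.8 in SCY820 and 4272.5 in SCY328. STE2, the alpha-factor receptor gene, had 189.6, 152.8 and 320.8 in the same order. Of 5 alpha-cell genes, 4 stayed under the filter, and MF(ALPHA)1 had 7.2 in SCY840 and 3.5 in SCY820. AFB1, an alpha-cell gene for a pheromone-binding protein, was the exception with 21.2 in SCY840 and 87.4 in SCY820. Of 12 meiotic genes 1 passed, HOP1, with 73.5 in SCY840, 51.7 in SCY820 and 8.8 in SCY328.

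On the deposited scaling both isolates had nearly the same overall signal but not the same RNA profile. The near-equal trimmed means belong to that scaling and are not a result about the RNA. The 2% trimmed means were 249.052 in SCY840, 249.282 in SCY820 and 249.493 in SCY328. The ratio of 5' to 3' signal of ACT1, the actin gene, was 0.351 in SCY840 (0.297 to 0.423 over 4 chips), against 0.764 in SCY820 (0.491 to 0.941) and 0.781 in SCY328. SPT15 and SRB4 had 5' to 3' ratios of 0.370 and 0.201 in SCY840, against 0.603 and 0.399 in SCY820. Across 69 genes with probe sets for both exons, the median log2 ratio was -0.01 for the first exon and 0.36 for the second, and the first was lower in 53. All 9 bacterial spike probe sets (BioB, BioC, BioD and Cre) were brighter in SCY840 than in SCY820, with a median log2 ratio of 1.04 and a range of 0.55 to 1.43. Against SCY328 the spikes had median log2 ratios of -0.01 in SCY840 and -1.09 in SCY820. The 10 ribosomal RNA probe sets had a median log2 ratio of -1.29. Every ratio below stands on the deposited scaling, on which the trimmed means are nearly equal. On a scale set by the spikes, each log2 ratio is 1.04 lower. That scale is given only as an alternative, and whether it follows the amount of yeast messenger RNA was not tested. The other bacterial control probe sets (DapX, LysX, PheX, ThrX and TrpnX) lay under the filter value in all samples and were not used.

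Among the 4566 genes, 1087 had at least 2-fold lower signal in SCY840 than in SCY820 (23.8%) and 368 at least 2-fold higher signal (8.06%). These shares are the background for every list count below. The median log2 ratio of SCY840 over SCY820 was -0.24, the interquartile range -0.96 to 0.40 and the SD over genes 1.11. Differences to the low side also reached further: 317 genes (6.94%) were at least 4-fold lower and 16 (0.35%) at least 4-fold higher. At least 8-fold differences comprised 103 lower genes (2.26%) and 0 higher genes, and 41 genes (0.898%) were at least 16-fold lower. At a 1.5-fold limit 37.3% of genes were lower and 19.4% higher. Of the 1087 lower genes, 314 had a SCY840 signal under 25.4, so the size of each of these differences depends on the floor. Among those named below without that remark are APJ1, MET13, MET2, GUT2, PFK27, UBX2, HRD3, PHO5 and MAL32. Where a gene had several probe sets (107 genes), their log2 ratios had a median SD of 0.24 and a root mean square SD of 0.62, which reflects probe sets and not cultures. The share of lower genes among the 2-fold differences moved with scaling: it was 74.7% as deposited, 55.6% after centring on the median gene, 57.9% after lowess on signal, 50.9% after quantile normalization and 99.5% on the spike scale.

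**Figure D1:**
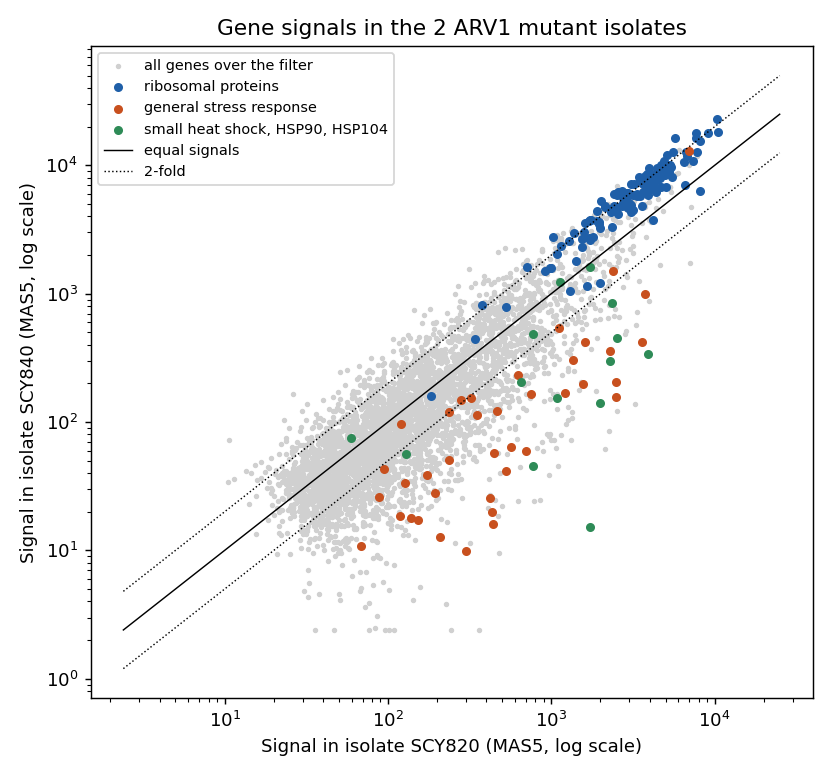
Signal of each gene over the filter in SCY840 (vertical) against SCY820 (horizontal), both log axes in MAS5 signal units, with signals under 2.4 drawn at 2.4. General stress genes (orange) and small heat shock, HSP90 and HSP104 genes (green) lie mostly below the 2-fold line, and ribosomal protein genes (blue) lie mostly above the line of equal signals, which on the spike scale would run 1.04 log2 units higher.

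The lowest ratios belonged to chaperones, reserve carbohydrate enzymes and cell surface regulators. Among genes with a signal of at least 100 in the brighter isolate and no cross-hybridising probe set, YNL194C, which encodes a plasma membrane protein of the SUR7 family, had 0.6 in SCY840, 358.4 in SCY820 and 55.8 in SCY328. It was at least 149-fold lower in SCY840. HSP26, which codes for a small heat shock protein, had 15.3 in SCY840, 1733.8 in SCY820 and 416.8 in SCY328, a 113-fold lower signal. SSA3, a stress-inducible cytosolic HSP70 gene, had 1.4, 241.5 and 10.5 in the same order and was at least 101-fold lower. These sizes depend on the floor where SCY840 lies near or under it: with the floor at the 25th percentile of the table the log2 ratios were -3.96 for YNL194C, -6.23 for HSP26 and -3.39 for SSA3. The control lay between the isolates for these 3 genes and for the other 9 of the 12 lowest.

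The next places were held by regulators and a clathrin adaptor. MGA1, for a protein related to heat shock factor, had 3.8 in SCY840 and 226 in SCY820. YPK2, for a protein kinase of the plasma membrane stress response, had 9.5 in SCY840 and 477.9 in SCY820. YAP1801, for a clathrin assembly protein, had 1.5 in SCY840 and 109 in SCY820. YKR075C had 2 in SCY840 and 101.6 in SCY820. The SCY840 signals of these 4 genes lay under the filter value, so the size of each difference depends on the floor. With the floor at the 10th percentile of the table their log2 ratios were -4.97 for MGA1, -5.65 for YPK2, -3.92 for YAP1801 and -3.82 for YKR075C, and with the floor at the 25th percentile -3.29, -4.37, -2.24 and -2.14 in the same order. SSA4, the second stress-inducible HSP70 gene, remained detectable with 61.4 in SCY840, 2144.1 in SCY820 and 748.4 in SCY328, 34.9-fold lower. MTL1, a sensor of cell wall stress, had 4.1 in SCY840 and 142.8 in SCY820, a log2 ratio of -4.31 with the floor at the 10th percentile and -2.63 at the 25th.

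The 12 highest genes showed smaller differences and were all short, with lengths of 213 to 765 bases, beside a median of 1191 over all genes. BIL1, for a partner of the actin regulator Bud6, had 164.6 in SCY840, 26.2 in SCY820 and 59.2 in SCY328, a 6.28-fold higher signal. RPA12, for a subunit of RNA polymerase I, had 740 in SCY840, 143.5 in SCY820 and 291.7 in SCY328, 5.16-fold higher. POC4, for a proteasome assembly chaperone, had 1544.6, 312.3 and 345.1 in the same order, 4.95-fold higher. Polymerase subunits recurred in this group: RPC17 and RPC11 of RNA polymerase III had log2 ratios of 2.11 and 2.07, and RPB10, shared by all 3 nuclear polymerases, had 2.09. UTP23, for a factor of small ribosomal subunit assembly, had 2257.8 in SCY840, 519 in SCY820 and 1386.2 in SCY328, 4.35-fold higher. DSS4, for a factor acting on the secretory GTPase Sec4, was 4.86-fold higher, TAD2, for a tRNA-modifying deaminase, 4.49-fold and SNL1, for an HSP70 cofactor, 4.15-fold. YCR043C and YNL046W completed the group at 4.54-fold and 4.45-fold. The control lay between the isolates in all 12, though close to SCY820 for POC4, YCR043C and SNL1. At the 2-fold limit to the low side, SGN1 (62.3 in SCY840, 124.7 in SCY820) was just inside and HXK2 (1429.8 and 2856.3) just outside. To the high side, CIA2 (162.1 in SCY840, 80.9 in SCY820) was just inside and MEU1 (368.1 and 184.3) just outside.

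Genes of the general stress programme were lower in SCY840 almost throughout. Of 42 listed genes on the array 39 passed the filter, and 34 of these were at least 2-fold lower and 0 at least 2-fold higher, beside 23.8% and 8.06% of all genes. Their median log2 ratio was -2.66, against -0.24 over all genes. Without the filter the medians were -2.20 over 42 genes and -0.27 over all genes. The median signal over the 39 genes was 96.7 in SCY840, 441.7 in SCY820 and 129.6 in SCY328. The control lay between the isolates for 27, beside 40.6% of all genes and 73.4% of all genes at least 2-fold lower. RTN2, for a reticulon of the endoplasmic reticulum, had 9.9 in SCY840, 299.9 in SCY820 and 61.8 in SCY328, a log2 ratio of -4.92. MSC1 had 16.1, 441.7 and 129.6 in the same order (-4.78). SOL4, for an enzyme of the pentose phosphate pathway, had 20, 435 and 83.2 (-4.44), and SDS24 had 25.6, 419.6 and 122.8 (-4.03). The SCY840 signals of RTN2, MSC1 and SOL4 lay under the filter value, so the size of each difference depends on the floor. With the floor at the 25th percentile the list median was -2.22. HOR7, named after its value was seen, was the sole member above 0, with 12874.5 in SCY840, 7010 in SCY820 and 10067.5 in SCY328.

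Reserve carbohydrate genes showed the same direction. Glycogen and hexose phosphate genes had a median log2 ratio of -2.97 over 15 genes, and -2.63 over 17 genes without the filter. Of the 15 genes 11 were at least 2-fold lower and all 15 were below 0. PGM2, for phosphoglucomutase, had 24.8 in SCY840, 855.3 in SCY820 and 372.8 in SCY328, 34.5-fold lower. GPH1, for glycogen phosphorylase, had 24.1, 783.1 and 179.4 in the same order, 32.5-fold lower. GSY1, for a glycogen synthase, had 11.4, 316.3 and 151.8, and HXK1, for a hexokinase repressed by glucose, had 139, 3251.2 and 1997.7. All 4 were lowest in SCY840 and highest in SCY820. The SCY840 signals of PGM2, GPH1 and GSY1 lay under the filter value. With the floor at the 25th percentile the median of the glycogen list was -2.51. The 6 trehalose genes had a median of -2.14, and 5 were at least 2-fold lower. Without the filter the trehalose median was -1.57 over 7 genes. TSL1, for a regulatory subunit of trehalose synthase, had 24.2 in SCY840, under the filter value, 624 in SCY820 and 239.7 in SCY328. TPS1 and TPS2, for the synthase and the phosphatase, had log2 ratios of -2.71 and -3.01, and NTH2, a trehalase gene, had -1.57.

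Chaperone lists all had medians below 0, by different amounts. The list of small heat shock proteins, HSP90 and HSP104 had a median log2 ratio of -2.07, with 10 of 14 genes at least 2-fold lower. HSP78, a mitochondrial disaggregase gene, had 45.5 in SCY840, 776.3 in SCY820 and 257.2 in SCY328. HSP42, a second small heat shock protein gene, had 140.5, 1996.1 and 1310.3 in the same order, and HSP30, for a plasma membrane heat shock protein, had 341.1, 3882.4 and 1367.3. Cytosolic HSP70 genes and partners had a median of -1.17, with 9 of 16 at least 2-fold lower. SSE2, for an HSP70 nucleotide exchange factor, had 38.5 in SCY840, 974.1 in SCY820 and 172.3 in SCY328, and APJ1, a J-domain protein gene, had 22.5, 159.8 and 75.5. Mitochondrial chaperones had a median of -1.12, and -0.60 after lowess on length. Of 7 genes 4 were at least 2-fold lower, among them MDJ1 (log2 ratio -2.76), SSC1 (-2.33), HSP60 (-1.85) and TIM44 (-1.12).

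The other stress lists ranged in median log2 ratio from -1.20 to -0.28. Osmotic stress and glycerol genes had a median log2 ratio of -1.20, with 6 of 11 at least 2-fold lower. GPD2 and GPD1, for glycerol phosphate dehydrogenases, had log2 ratios of -3.52 and -1.98, GCY1, for a glycerol dehydrogenase, -2.70 and CTT1, for cytosolic catalase, -2.79. Autophagy and vacuolar protease genes had a median of -0.92, with 7 of 16 at least 2-fold lower, led by AMS1, for vacuolar mannosidase (66.4 in SCY840, 417.9 in SCY820, 36.8 in SCY328), and APE1, for an aminopeptidase (42.9, 241.5 and 114.8). Oxidative stress genes had a median of -0.45. Of 26 genes 9 were at least 2-fold lower and 2 at least 2-fold higher, beside 23.8% and 8.06% of all genes. OYE3, an NADPH dehydrogenase gene, had -3.22, GSH1, for glutathione synthesis, -2.29 and SOD2, for mitochondrial superoxide dismutase, -1.82. Ubiquitin and proteasome genes had a median of -0.28, close to that of all genes. Of 35 genes 5 were at least 2-fold lower, a smaller share than the 23.8% of all genes. Among the 5 were RPN4 (64.1 in SCY840, 234.7 in SCY820, 34.8 in SCY328), the transcription factor gene for the proteasome, and UBI4, the polyubiquitin gene (477, 1395.5 and 699.7).

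**Figure D2:**
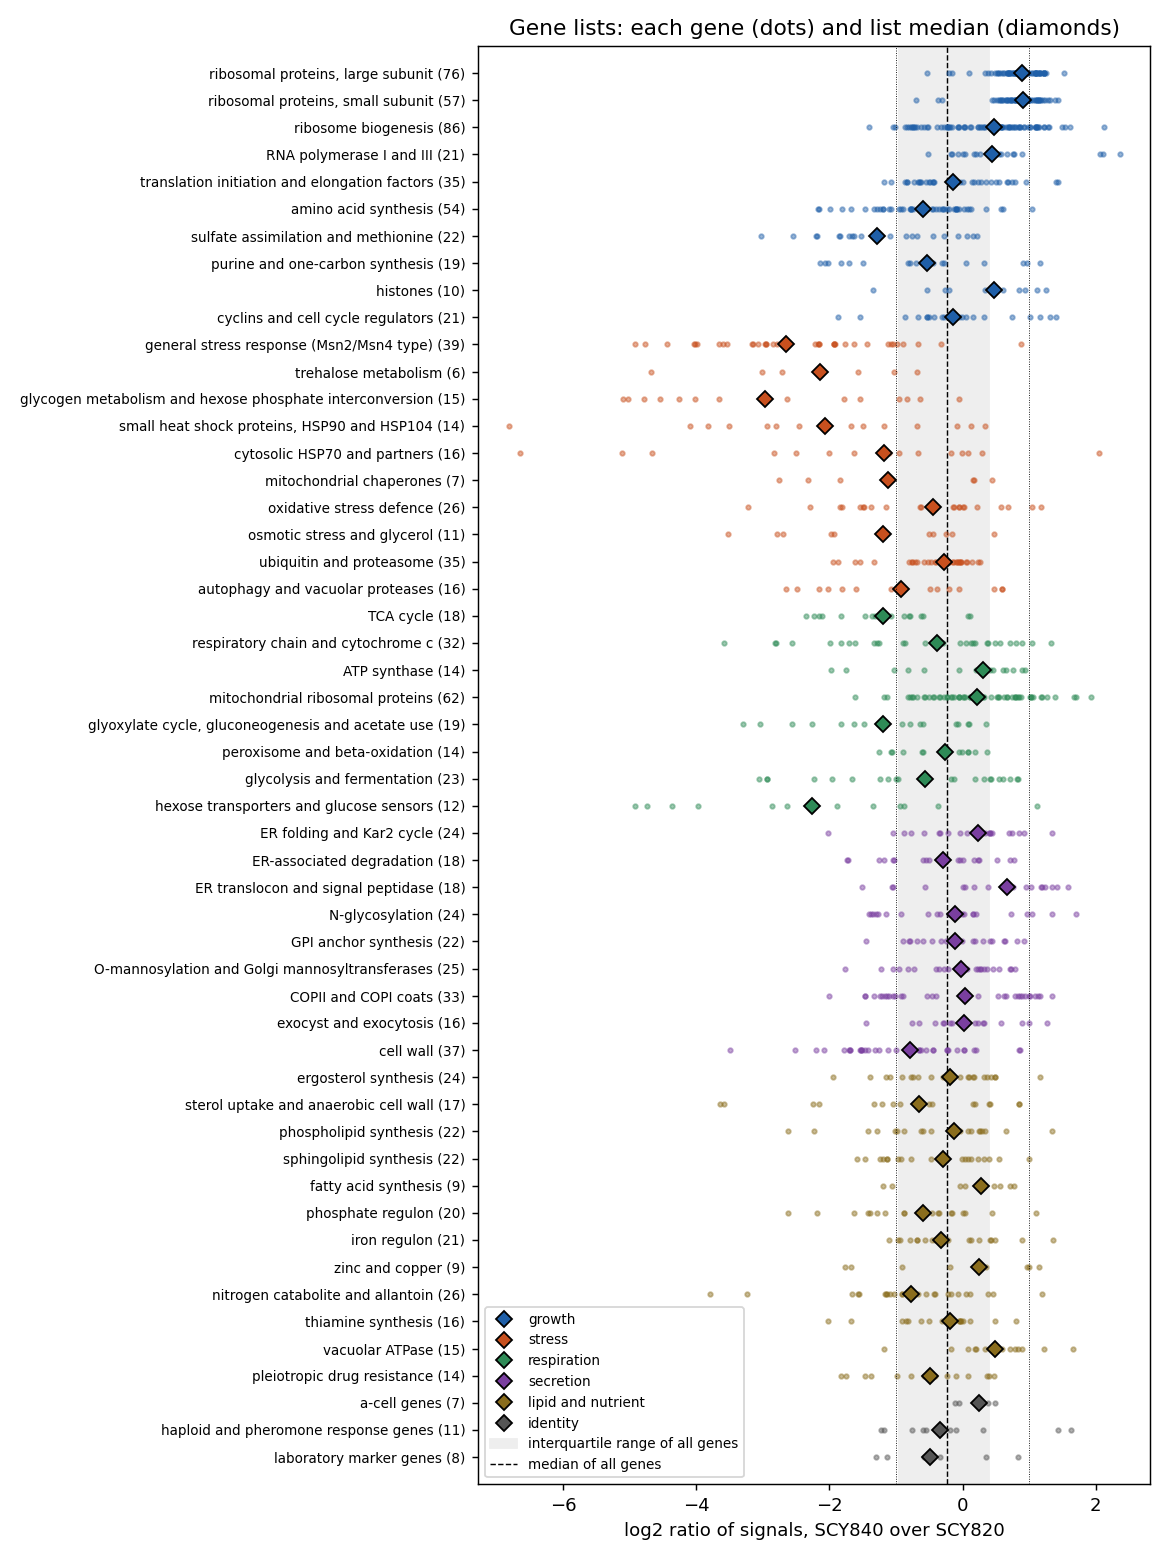
log2 ratio of signals, SCY840 over SCY820 (horizontal), for every gene over the filter in each list of at least 5 such genes (dots), with list medians (diamonds) coloured by area and the number of genes in brackets. The dashed line is the median of all genes (-0.24), the grey band their interquartile range and the dotted lines 2-fold. General stress, trehalose, glycogen and small heat shock medians lie below -2. Without the filter they are -2.20, -1.57, -2.63 and -2.07, and the hexose transporter median of -2.26 becomes -1.10. Ribosomal protein medians lie near 0.9 on the deposited scaling, which the spike scale turns to -0.14 and -0.13.

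Genes for ribosomes were higher in SCY840 on the deposited scaling, by less than 2-fold for most, and this direction turned on the spike scale. Large subunit genes had a median log2 ratio of 0.89 over 76 genes and small subunit genes 0.91 over 57, which the spike scale made -0.14 and -0.13. Of the large subunit genes 73 were above 0 and 23 at least 2-fold higher. Of the small subunit genes 54 were above 0 and 19 at least 2-fold higher, beside 8.06% of all genes. In either list 0 genes were at least 2-fold lower. The median signal of the 57 small subunit genes was 5765.9 in SCY840, 2986.1 in SCY820 and 5056.1 in SCY328. For the 76 large subunit genes it was 6184.2, 3616.95 and 5891.2 in the same order. Against SCY328 the small subunit median was 0.20 in SCY840 and -0.68 in SCY820 as deposited, but 0.21 and 0.41 on the spike scale. RPL43A had 16322.7 in SCY840, 5693.2 in SCY820 and 8365.6 in SCY328, and RPL25 had 9555.3, 3984.7 and 6248. RPS26B had 2765, 1026.6 and 1941.3, whereas RPS26A, its close copy, named after its value was seen, had 1209.8, 1972.2 and 5195. Ribosomal protein genes come largely in near-identical pairs, and 44 of these genes were read by probe sets marked as cross-hybridising, so members of a pair are uncertain.

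These genes are also the brightest on the array. Ribosomal protein genes made up 129 of the 457 genes in the highest decile of signal, where the median log2 ratio was 0.57. The other 328 genes of that decile had a median of 0.19, beside -0.52 to -0.12 in the remaining deciles. The 99th percentile of signal was 7214 in SCY840, 4211 in SCY820 and 6572 in SCY328. After lowess on signal the medians of the large and small subunit lists were 0.20 and 0.22.

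Ribosome assembly genes, which are less bright, had a median log2 ratio of 0.47 over 86 genes. Of these 17 were at least 2-fold higher and 3 at least 2-fold lower. NIP7, for a large subunit assembly factor, had 244.5 in SCY840, 79.4 in SCY820 and 181.7 in SCY328. SSF1 had 126.5, 43.3 and 68.4 in the same order, and RPF1 had 138.9, 49.3 and 115.9, both for factors of large subunit assembly. On the deposited scaling the control was above both isolates for 64 of the 86 genes, beside 24.0% of all genes. The median was -0.46 for SCY840 over SCY328 and -0.85 for SCY820 over SCY328 as deposited, and -0.45 and 0.24 on the spike scale. RNA polymerase I and III genes had a median of 0.45 over 21 genes, with 3 at least 2-fold higher and 0 lower, and RPC25 had 131.5 in SCY840 and 70.4 in SCY820. On the spike scale these list medians lie below 0.

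Other growth lists differed among themselves in direction. Translation initiation and elongation factors had a median log2 ratio of -0.14 over 35 genes. Short members were higher, such as CDC33, the cap-binding protein gene (6859.4 in SCY840, 2529.2 in SCY820, 4644.8 in SCY328), and SUI1 (2865.5, 1077.4 and 1617.1). PAB1, for the poly(A)-binding protein, had 233.8, 532.2 and 612.6. Sulfate assimilation and methionine genes had a median of -1.29, with 13 of 22 at least 2-fold lower, among them MET13 (22.2 in SCY840, 182.2 in SCY820, 142.8 in SCY328), MET2 (22.1, 128.7 and 53.4), STR3 (56.9, 262.5 and 94.5) and CYS3 (873, 3967.5 and 3206.3). Amino acid synthesis genes had a median of -0.59, and -0.16 after lowess on length, with 13 of 54 at least 2-fold lower, a share near the 23.8% of all genes. They were led by LYS1 (log2 ratio -2.17), ARG7 (-2.15) and ILV2, which had 239.3 in SCY840 and 954.1 in SCY820. Purine and one-carbon genes had a median of -0.54, and -0.17 after lowess on length. Among them were ADE17 at -2.14, IMD2 at -2.06, ADE16 at -2.03 and SHM2 at -1.83. Cyclins and cell cycle regulators had a median of -0.14 and members on both sides: CLN3, a G1 cyclin gene, had 52.6 in SCY840 and 193.2 in SCY820, while PCL1 had 121.7 and 45.8 and CLB5, an S-phase cyclin gene, 275.9 and 111.4. Histone genes had a median of 0.48 over 10 genes, but -0.04 after lowess on length and -0.56 on the spike scale.

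**Figure D3:**
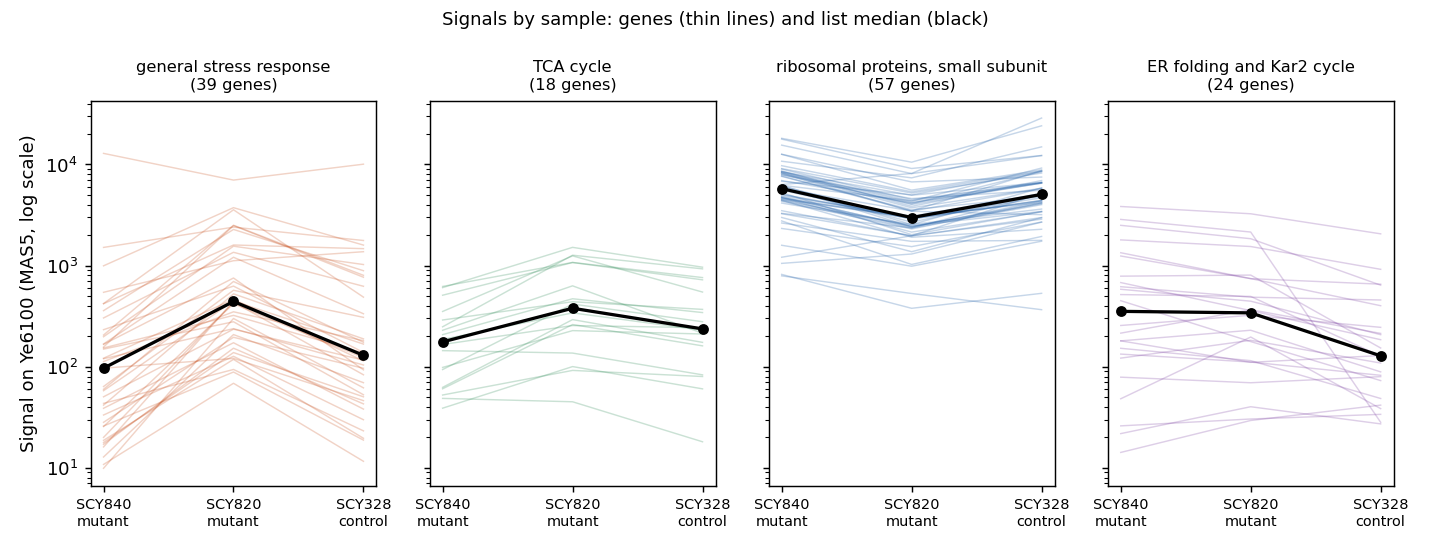
Signal (log axis, MAS5 units) of each gene over the filter in SCY840, SCY820 and the control SCY328 for 4 lists, with the list median in black. General stress and TCA cycle genes peak in SCY820 and small subunit ribosomal protein genes dip there on the deposited scaling but not on the spike scale, whereas endoplasmic reticulum folding genes are similar in both isolates on the deposited scaling (median log2 ratio 0.23, and -0.81 on the spike scale) and lower in SCY328.

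Respiration genes were lower in SCY840 for the TCA cycle, with a mixed picture in the respiratory complexes. TCA cycle genes had a median log2 ratio of -1.19, with 11 of 18 at least 2-fold lower and 0 higher. The median signal was 176 in SCY840, 378.55 in SCY820 and 236.55 in SCY328. MDH1, for mitochondrial malate dehydrogenase, had 248.1 in SCY840, 1267.1 in SCY820 and 928.6 in SCY328, and KGD1, for ketoglutarate dehydrogenase, had 62.5, 292.4 and 174.1. SDH2 and SDH1, for succinate dehydrogenase subunits, had log2 ratios of -2.15 and -2.11. The glyoxylate, gluconeogenesis and acetate list had a median of -1.19, with 10 of 19 at least 2-fold lower, but its median was -0.56 after lowess on length and -0.31 after lowess on length and then signal. ALD4, for mitochondrial aldehyde dehydrogenase, had 94.9 in SCY840, 783.2 in SCY820 and 227.4 in SCY328, and ACH1, for an acetyl-CoA transferase, had 48.6, 288.2 and 215.7. The regulators SIP4 and ADR1 had log2 ratios of -3.31 and -2.27, from SCY840 signals of 6.8 and 19.5 that lie under the filter value.

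In the respiratory chain the median log2 ratio was -0.38 over 32 genes, with 11 at least 2-fold lower and 2 at least 2-fold higher. CYC7, the gene of the minor cytochrome c isoform, had 40.2 in SCY840, 484.2 in SCY820 and 233.5 in SCY328. GUT2, for a glycerol phosphate dehydrogenase, had 14.8, 104.3 and 30.8, NDI1, for NADH dehydrogenase, 49.8, 347.3 and 153, and CYT1, for cytochrome c1, 61.4, 364.4 and 177.4. Of the 10 chain genes longer than 1000 bases 7 were at least 2-fold lower, with a median of -1.31. Over all genes longer than 1000 bases 859 of 2776 were at least 2-fold lower, with a median of -0.54. The 22 shorter chain genes had a median of 0.14, beside 0.25 for all genes of up to 1000 bases. ATP synthase genes divided the same way: ATP1 and ATP2, the long genes for the catalytic core, had log2 ratios of -1.97 and -1.75, while the 12 genes of up to 1000 bases had a median of 0.43. Mitochondrial ribosomal protein genes had a median of 0.21 over 62 genes, with 11 at least 2-fold higher, led by the short genes MRP2 (1.93), MRPL37 (1.70) and RSM27 (1.67), and 3 at least 2-fold lower, with MRP20 at -1.62. Peroxisome and beta-oxidation genes had a median of -0.26, with 3 of 14 at least 2-fold lower, a share near the 23.8% of all genes.

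Sugar uptake genes over the filter were mostly lower in SCY840. Of 22 transporter and sensor genes 12 passed the filter, with a median log2 ratio of -2.26, 8 at least 2-fold lower and 1 at least 2-fold higher. The median was -1.10 without the filter (22 genes), -1.62 without cross-hybridising probe sets (10 genes) and -1.63 after lowess on length. MTH1, a repressor of transporter genes, had 5.2 in SCY840, 158 in SCY820 and 46.9 in SCY328, a log2 ratio of -2.77 with the floor at the 25th percentile. HXT7 and HXT6, near-identical high-affinity transporter genes read by cross-hybridising probe sets, had 84.4 and 121.5 in SCY840, 2260.7 and 2518.9 in SCY820, and 1611.7 and 1662.7 in SCY328. HXT4 had 26.8 in SCY840, 423 in SCY820 and 252.7 in SCY328. HXT1, the low-affinity transporter gene induced by high glucose, named after its value was seen, was the 1 higher gene, with 817 in SCY840, 377.4 in SCY820 and 643.8 in SCY328. Glycolysis and fermentation genes had a median of -0.57, and -0.19 after lowess on length. Beside 23.8% of all genes, 8 of these 23 were at least 2-fold lower. These were mainly minor isoforms and regulators: ADH5 had 74 in SCY840 and 618.3 in SCY820, PYK2 30.1 and 231.9, PFK26 26.1 and 200.6, and PFK27 18.5 and 87.2.

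Secretory pathway genes as a group lay near the rest of the genome, with a median log2 ratio of -0.10 over 217 genes, 19 at least 2-fold higher (8.76%) and 50 at least 2-fold lower (23.0%). The folding genes of the endoplasmic reticulum were high in both isolates. Their median signal over 24 genes was 352.7 in SCY840, 340.75 in SCY820 and 128.1 in SCY328. For 19 of them SCY328 was below both isolates, beside 35.4% of all genes. The median log2 ratio between the isolates was 0.23 as deposited and -0.81 on the spike scale. KAR2, the HSP70 of the endoplasmic reticulum, had 3841.9 in SCY840, 3254.3 in SCY820 and 2060.8 in SCY328, and ERO1, the oxidase of disulfide formation, had 516.9, 495.6 and 127.2; both were named after their values were seen. JEM1 and ERJ5, J-domain partners of Kar2, differed in opposite directions, JEM1 with 48.2 in SCY840 and 196.6 in SCY820 and ERJ5 with 449.7 and 177.3. MPD2, for a disulfide isomerase relative, had a log2 ratio of 0.92 and GTB1, for a glucosidase subunit, -1.05. Degradation genes (ERAD) had a median of -0.29, with 6 of 18 at least 2-fold lower, among them UBX2 (20.7 in SCY840, 68.9 in SCY820), DSK2 (409.5 and 1354), HRD3 (20.2 and 48.3) and UBC6 (157.7 and 358.3).

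Complexes of the early secretory pathway divided by the length of their genes. Translocon and signal peptidase genes had a median log2 ratio of 0.67 over 18 genes on the deposited scaling and -0.37 on the spike scale. The 12 genes of up to 1000 bases had a median of 1.10, and 7 were at least 2-fold higher. The 6 longer ones had a median of -0.81, and 3 were at least 2-fold lower. SEC61, the channel gene, had 164.7 in SCY840, 468.8 in SCY820 and 134.2 in SCY328, whereas SBH2, for a small partner of the Sec61-like channel, had 5323.2, 1995.2 and 2788.1. SEC11, the signal peptidase catalytic subunit gene, had 2215, 872.8 and 714.2. In the COPII and COPI coats the 15 genes of up to 1000 bases had a median of 0.87 with 6 at least 2-fold higher, and the 18 longer ones -1.07 with 11 at least 2-fold lower. SEC16, SEC23 and SEC31, for coat and scaffold proteins, had log2 ratios of -2.01, -1.47 and -1.47, and ERV14, for a cargo receptor, had 1.34. Over all genes, the medians were 0.25 for 1790 genes of up to 1000 bases and -0.54 for 2776 longer ones. Of all the shorter genes 300 were at least 2-fold higher and 228 at least 2-fold lower. Of all the longer ones 68 were higher and 859 lower by that limit.

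Glycosylation and anchor lists had medians near that of all genes before any correction for length. After lowess on length they were 0.20 for N-glycosylation, 0.43 for anchor synthesis and 0.57 for O-mannosylation genes, beside -0.001 for all genes. N-glycosylation genes had an uncorrected median log2 ratio of -0.12. Of 24 genes 3 were at least 2-fold higher and 6 lower, beside 8.06% and 23.8% of all genes. ALG5 had 243.7 in SCY840 and 74.6 in SCY820, ALG14 618.8 and 243.8, ALG12 132.8 and 351, and ALG9 49.2 and 127.2. Anchor synthesis genes had a median of -0.11, and 1 of 22, PBN1 (82.2 in SCY840 and 224.6 in SCY820), passed 2-fold. O-mannosylation and Golgi mannosyltransferase genes had a median of -0.02, with 3 of 25 at least 2-fold lower: MNN2 (-1.77), ANP1 (-1.22) and PMT5 (-1.04). Exocyst and exocytosis genes had a median of 0.01. Cell wall genes stood apart within this area, with a median of -0.79, 17 of 37 at least 2-fold lower and 0 higher. TIP1, for a wall mannoprotein, had 119.6 in SCY840, 1347.4 in SCY820 and 891.8 in SCY328. PIR3 and HSP150, of the PIR family of wall proteins, had 574.8 and 724 in SCY840, 3290.6 and 3329.9 in SCY820, and 359.3 and 1860.3 in SCY328, and GAS5, for a glucanosyltransferase, had 166, 701.8 and 378.6.

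Before any correction for length, the median log2 ratios of 3 lipid synthesis lists were near that of all genes. They were -0.19 for ergosterol, -0.13 for phospholipid and -0.29 for sphingolipid synthesis. After lowess on length they were 0.37, 0.02 and -0.10 in the same order, beside -0.001 for all genes. Fatty acid synthesis genes had 0.27 over 9 genes and 0.75 after lowess on length. ERG12, for mevalonate kinase, had 76.5 in SCY840 and 295.2 in SCY820, and ERG2 4969.2 and 2213.6. INO2, an activator of phospholipid genes, had 28.6 in SCY840, 176.3 in SCY820 and 153.4 in SCY328, and INO1, for inositol synthesis, had 27, 72.5 and 11.5. Sterol uptake and anaerobic wall genes had a median of -0.66, with 7 of 17 at least 2-fold lower. Among the 7 were the sterol regulator UPC2 (4.1 in SCY840, 51.2 in SCY820) and HEM13 (81.6 and 387.3). The SCY840 signal of UPC2 lay under the filter value, so the size of its difference depends on the floor. Nutrient lists held single genes with large differences. CAR2 and PUT1, for arginine and proline breakdown, had 16.5 and 13.1 in SCY840 against 229 and 124.1 in SCY820. Both SCY840 signals lay under the filter value, so the size of each difference depends on the floor. PHO84 and PHO5, for phosphate uptake and acid phosphatase, had 89.3 and 15.9 in SCY840, 551.3 and 72.3 in SCY820, and 897.2 and 643.3 in SCY328, so both isolates lay below the control.

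The difference between the isolates moved with gene length across the genome. Genes of up to 500 bases had a median log2 ratio of 0.59, with 27.5% at least 2-fold higher and 7.94% at least 2-fold lower. Genes of 1500 to 2000 bases had a median of -0.71, with 1.86% higher and 37.6% lower. The Spearman correlation of the ratio with length was -0.36 over 4566 genes, which share both samples and are not independent. The median length was 1473 bases among the lower genes and 623.5 among the higher ones. The ACT1 5' to 3' ratio differed between the same samples, and its part in the length pattern was not tested.

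General stress genes were lower at every length. In genes without exon-split probe sets their median log2 ratio was -2.17 for up to 500 bases (10 genes, beside 0.60 for all such genes), -1.94 for 500 to 1000 bases (7 genes) and -2.97 for 1500 to 2000 bases (8 genes). After lowess on length the list median was -2.44, that of glycogen genes -2.63 and that of TCA cycle genes -0.76. Ribosome assembly genes exceeded all genes of their length from 500 bases upward, with 0.90 beside 0.09 at 500 to 1000 bases (18 genes) and -0.06 beside -0.72 at 1500 to 2000 bases (26 genes). Small subunit ribosomal protein genes had 1.09 beside 0.60 up to 500 bases (13 genes) and 0.66 beside 0.09 at 500 to 1000 bases (7 genes). Mitochondrial ribosomal protein genes had 1.02 beside 0.60 up to 500 bases (18 genes), 0.10 beside 0.09 at 500 to 1000 bases (32 genes) and -0.34 beside -0.47 at 1000 to 1500 bases (11 genes). By contrast, the nitrogen list had -0.13 after lowess on length, against -0.77 before.

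**Figure D4:**
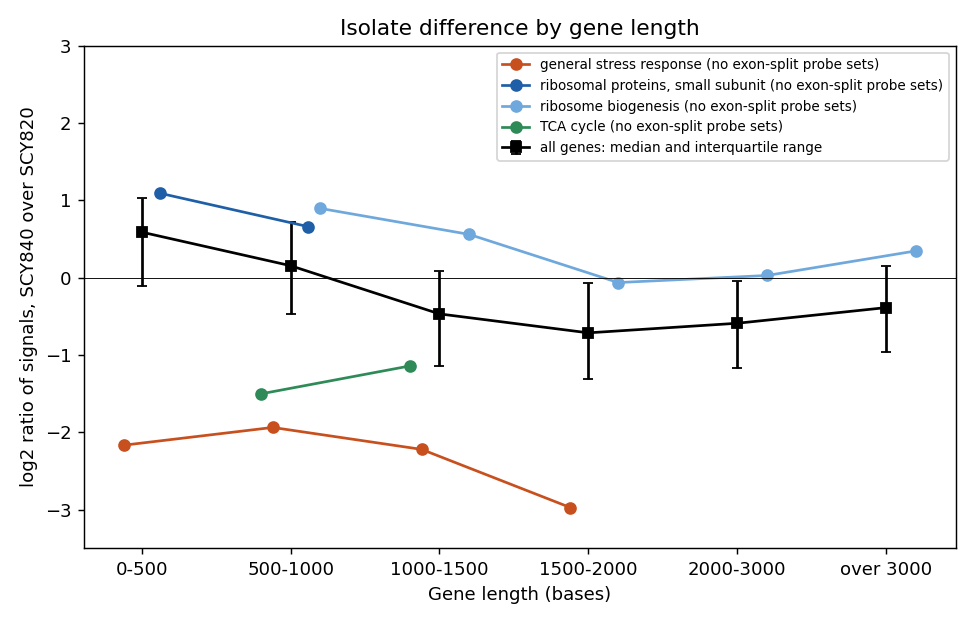
Median log2 ratio of signals, SCY840 over SCY820 (vertical), by gene length in bases (horizontal), for all genes with their interquartile range (black) and for 4 lists in genes without exon-split probe sets where at least 3 genes fall in a length class. All genes run from 0.59 at up to 500 bases to -0.71 at 1500 to 2000 bases, general stress genes lie near -2 or below in each class, and ribosome assembly genes lie above all genes of their length.

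The place of the control SCY328 was counted on the deposited scaling. Genes chosen for a wide gap between the isolates hold a further value between them more often, so the shares follow in part from the choice. Of the 1087 lower genes SCY328 lay between the isolates for 798 (73.4%), above both for 180 and below both for 109. Of the 368 higher genes it lay between for 250 (67.9%), above both for 22 and below both for 96. Over all genes it lay between for 40.6%, above both for 24.0% and below both for 35.4%. Both isolates share this control, so their ratios to it are given side by side and not as independent results. General stress genes had a median log2 ratio of -1.04 for SCY840 over SCY328 and 1.64 for SCY820 over SCY328. Glycogen genes had -1.95 and 1.06, trehalose genes -0.88 and 1.49, and hexose transporter genes -1.12 and 0.65 in the same order. Large subunit ribosomal protein genes had 0.15 and -0.72 as deposited, but 0.16 and 0.37 on the spike scale, and endoplasmic reticulum folding genes 0.91 and 0.76.

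A second RNA sample labelled SCY840 was available on the S98 format, where its signals were set against control SCY2004, a pair that shares no sample with the isolate comparison. Of 4287 genes over the filters of both formats, 9.94% were at least 2-fold higher and 1.52% at least 2-fold lower on S98. Of the 1020 such genes that were lower in SCY840 than in SCY820 on Ye6100, 202 (19.8%) were at least 2-fold higher on S98 and 10 (0.980%) at least 2-fold lower, with a median S98 log2 ratio of 0.45, beside 0.13 over all genes. Of the 343 genes that were higher in SCY840, 8 (2.33%) were at least 2-fold higher on S98 and 13 (3.79%) lower, with a median of -0.29. The general stress list had a median of 0.82 for SCY840 over SCY2004 on S98 and the glycogen list 0.55, both above 0, unlike SCY840 over SCY328 on Ye6100. The 12 lowest genes on Ye6100 all had S98 log2 ratios above 0, from 0.04 for HSP26 to 1.62 for YPK2. The Spearman correlation between the isolate ratio and the S98 ratio was -0.37 over 4287 genes. Array format, control strain and RNA sample differ together here and cannot be told apart.

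**Figure D5:**
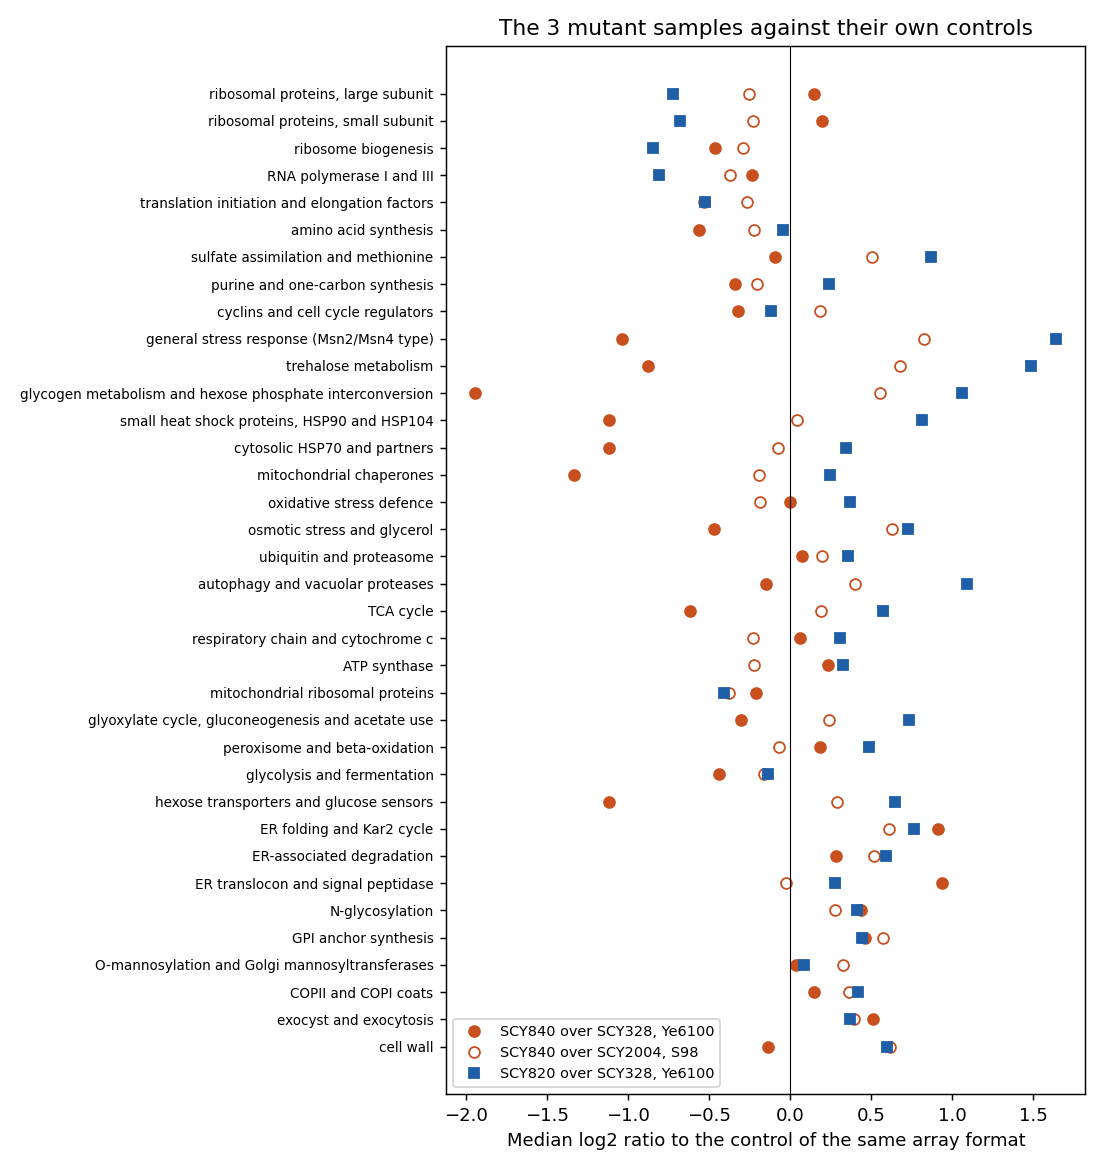
Median log2 ratio of each list to the control of the same array format (horizontal): SCY840 over SCY328 on Ye6100 (filled circles), SCY840 over SCY2004 on S98 (open circles) and SCY820 over SCY328 on Ye6100 (squares); the Ye6100 ratios share their control. For general stress genes the medians are -1.04, 0.82 and 1.64, so the S98 sample of SCY840 lies on the side of SCY820, while endoplasmic reticulum folding genes lie above 0 in all 3 (0.91, 0.61 and 0.76).

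No chromosome stood apart between the isolates. Chromosome medians of the log2 ratio ran from -0.41 for chromosome VI (91 genes) to -0.14 for chromosome IX (167 genes), a range of 0.263. Among chromosome arms the lowest median was -0.68 for the left arm of chromosome XII (47 genes), which was -0.38 after lowess on length, and the highest -0.01 for the right arm of chromosome XIV (60 genes).

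Probe sets marked as cross-hybridising, which read families of near-identical sequences, had a median log2 ratio of -0.03 over 241 probe sets. Of these 22 were at least 8-fold lower in SCY840 and 0 at least 4-fold higher. Many had similar signals in SCY820 and SCY328, unlike the stress genes. YMR050C had 45.8 in SCY840, 1091.3 in SCY820 and 1192.8 in SCY328 on 1 probe set (log2 ratio -4.57). Its second probe set had 61.1, 299.4 and 266.9 in the same order (-2.29). The probe sets of YML045W had log2 ratios of -3.54 and -0.36, so the size of such differences depended on the probe set. YAR010C had 72.5, 1323.8 and 1664.1. MAL32, a maltase gene, had 3.9, 76.3 and 23.7. Because such probe sets can read the same transcripts, they are not separate observations.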

How the data were processed

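The deposited Ye6100 and S98 tables hold linear signal intensities, 1 per probe set, for which the submitters' processing notes name MAS5. Its version and scaling target and the genome build were not given in the sources used here. Arrays give no depth: the number of samples, 1 for each isolate, limits the precision. Per the file headers, 1 column of the Ye6100 table covers the 4 chips of a sample.

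Ye6100 signals were used as deposited. Signals under the 5th percentile of the table (2.4) were raised to it, the log2 ratio of SCY840 over SCY820 was taken, and genes whose brightest probe set had a mean over the 3 samples above the 25th percentile (25.4) were kept. A gene took the value of that probe set. A fold against a signal under 2.4 is a lower bound. Of 6421 probe sets 5844 matched a locus tag of the RefSeq gene table (assembly R64) and 577 did not. Gene lengths are those of that table and include introns. S98 signals of SCY840 and SCY2004 were multiplied by 1.41 and 0.707 to equal trimmed means, and probe sets were named through the platform annotation. Lowess used a fraction of 0.4.

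No p-value was computed. The calculation was tested on simulated data with Python 3.11.15, numpy, pandas and statsmodels. Genes were named by rule: ARV1, the 12 lowest and 12 highest ratios, up to 4 genes with the largest ratios in each of 55 gene lists, and genes beside the 2-fold limit; others are marked as chosen after their values were seen. The members and gene lists were chosen with earlier results of these data known. Mitochondrially encoded genes, promoter motifs and sequences were not analysed here.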

Additional observations from a re-analysis of the deposited data

Results flagged for a closer look

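In 6 gene lists the median log2 ratios to SCY328 lay on opposite sides of 0 in the 2 isolates, each by at least 0.5. In general stress genes the median was -1.04 for SCY840 and 1.64 for SCY820. In trehalose genes it was -0.88 for SCY840 and 1.49 for SCY820, and in glycogen genes -1.95 and 1.06. In small heat shock, HSP90 and HSP104 genes it was -1.12 for SCY840 and 0.81 for SCY820. In TCA cycle genes it was -0.62 for SCY840 and 0.57 for SCY820, and in hexose transporter genes -1.12 and 0.65. These differences were not tested, since each isolate is 1 sample and both share the control.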

How the results depend on the processing

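With 1 sample for each isolate, leaving out a replicate was not possible. No paired analysis was possible because each isolate has 1 column. Centring each chip was not run, since the table does not give a probe set's chip, and promoter motifs were not run, since no promoter sequences were used here. With the floor at the 10th percentile, 6 of the 12 lowest genes moved by more than the probe set spread, and the least of these ratios was -3.82. The range of chromosome medians (0.263) is smaller than the probe set spread (0.62), so that limit could not show a fall in it. The range was 0.24 after lowess on signal and 0.34 after lowess on length and then signal. That spread is between probe sets of single genes, so it is a wide limit for medians over many genes.

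The count of genes at least 2-fold higher was 656 after median centring, 665 after quantile normalization, 554 after lowess on signal, 888 at 1.5-fold and 16 at 4-fold. The count of lower genes was 688 after quantile normalization, 674 with the filter at the table median, 1701 at 1.5-fold and 317 at 4-fold. Large and small subunit ribosomal protein medians were 0.24 and 0.26 after quantile normalization and 0.20 and 0.22 after lowess on signal. The hexose transporter median was -1.10 without a filter and -1.62 without cross-hybridising probe sets, and the glycogen median -4.26 with the filter at the table median. The cause of these shifts was not tested.

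The following alternatives were chosen after seeing the data. Lowess on length gave -0.56 for glyoxylate, -1.63 for hexose transporter and -0.13 for nitrogen genes. Lowess on length and then signal gave -0.31, -1.56 and -0.11 for these lists, 0.24 for small subunit ribosomal proteins and 699 lower genes. A floor at the 25th percentile moved 8 of the 12 lowest genes, among them YNL194C to -3.96, SSA3 to -3.39, MGA1 to -3.29, MTL1 to -2.63 and YKR075C to -2.14, but none of the counts or list medians beyond these limits. Scaling to the spikes subtracts 1.04 from every log2 ratio by construction, and whether that scale follows RNA amounts was not tested. It gave 14 higher and 2827 lower genes, and every list median was negative. Positive medians thus turned, among them those of large (-0.14) and small subunit (-0.13) ribosomal proteins and of the translocon (-0.37). The same held for ribosome assembly (-0.57), RNA polymerase I and III (-0.59), histone (-0.56) and ATP synthase (-0.73) genes. It also held for mitochondrial ribosomal protein (-0.82), endoplasmic reticulum folding (-0.81), fatty acid synthesis (-0.77) and vacuolar ATPase (-0.55) genes. Medians already negative as deposited included -3.70 for general stress, -3.18 for trehalose, -4.01 for glycogen and -3.10 for small heat shock genes on that scale. Others were -2.21 for cytosolic HSP70, -2.16 for mitochondrial chaperone, -2.23 for osmotic stress, -1.96 for autophagy, -2.23 for TCA cycle and -2.23 for glyoxylate genes. Further ones were -1.60 for glycolysis, -3.30 for hexose transporter, -1.63 for amino acid, -2.32 for methionine and -1.57 for purine genes. Cell wall genes had -1.83, sterol uptake genes -1.70, phosphate genes -1.64 and nitrogen genes -1.81.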

Other observations

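Several nutrient and transport lists not described above lay close to the all-gene median log2 ratio of -0.24. Iron regulon genes had a median of -0.32 over 21 genes, thiamine synthesis genes -0.18 over 16 and pleiotropic drug resistance genes -0.49 over 14. After lowess on length these medians were 0.22, 0.11 and -0.11. ATX1, a copper chaperone gene, had a signal of 1554.5 in SCY840, 603.7 in SCY820 and 911.6 in SCY328. PDR12, for a weak acid transporter, had 63.4 in SCY840, 226 in SCY820 and 113.9 in SCY328, and TPO1, for a polyamine transporter, had 65.4, 220.2 and 91.1. Vacuolar ATPase genes had a median of 0.49 over 15 genes, led by the short genes VMA21 (593.1 in SCY840, 187.6 in SCY820 and 291 in SCY328) and VMA11 (3102.3, 1326.2 and 1570.2), while VMA2, for a subunit of the peripheral sector, had 407.8, 926.9 and 1060.3.

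Haploid and pheromone response genes held members on both sides. HO, the mating type switching endonuclease gene, had 41.9 in SCY840, 13.5 in SCY820 and 42.3 in SCY328. FAR1, for the pheromone arrest protein, had 164.1, 60.4 and 145.2, whereas AGA1, an agglutinin gene, had 31.9, 74.5 and 82.6.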
